A study of Mus musculus with 11 samples.

Results

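The peroxisome proliferator-activated receptors (PPARs) and the retinoid X receptors (RXRs) are nuclear receptors, and this section follows the genes of these receptors and of their cofactors through the kidneys of an Alport syndrome mouse model. The members were chosen by name: Ppara, Ppard, Pparg, Rxra, Rxrb, Ppargc1a, Ppargc1b, Esrra, Ncor1 and Lpin1. Of these 10 genes, 8 had a row among the 24914 rows of each count file, and all 8 passed the filter on low counts that left 14380 loci for testing. Esrra and Ncor1 were not analysed here. Reads of Ppara were counted together with those of Cdpf1, and reads of Rxrb together with those of H2-Ke6. The values of these joint loci, written Cdpf1/Ppara and H2-Ke6/Rxrb, cannot be assigned to either gene.

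Messenger RNA of whole kidney from 129X1/SvJ mice aged 5.5 weeks was sequenced in 11 libraries. There were 3 HET PBS libraries, from Col4a3+/- mice that received PBS. The Col4a3-/- mice received either PBS (KO PBS, 4 libraries), or antimiR-21, which inhibits miR-21 (KO antimiR-21, 4 libraries). Col4a3 encodes a chain of the type IV collagen of the glomerular basement membrane, and its loss gives the mouse form of Alport syndrome. All 3 groups carry at least 1 disrupted Col4a3 allele, since the controls are heterozygous, and no antimiR-21 was given to heterozygous mice. The labels do not say whether libraries of a group came from separate mice, so p-values measure the spread between libraries.

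Libraries held 17.9 to 39.7 M counts, so sampling error is small for every member except Pparg. Markers of the kidney were abundant: the summed level of the proximal tubule list lay between 18700 and 42200 CPM (the count per 1 M counts of a library, after TMM scaling), and that of the podocyte list between 706 and 1050 CPM. The labels give no sex. Ddx3y, a gene of the Y chromosome, had 89.7 to 109 CPM in 5 libraries (2 of HET PBS, 2 of KO PBS, 1 of KO antimiR-21) and at most 0.172 CPM in the other 6. Libraries with and without Y-linked reads are therefore unequally spread over the groups, and each member's difference by that status is given with it.

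PPAR-alpha, encoded by Ppara, is activated by fatty acids and switches on genes of fatty acid uptake and oxidation. In the kidney it is best known from the proximal tubule, which depends on fatty acids for fuel. PPAR-delta (Ppard) acts on similar genes in many tissues, and PPAR-gamma (Pparg) is the regulator of fat cell formation. Each PPAR binds DNA as a heterodimer with an RXR. The coactivators PGC-1 alpha (Ppargc1a) and PGC-1 beta (Ppargc1b) dock on PPARs and on estrogen-related receptors and raise mitochondrial gene expression. Lipin 1 (Lpin1) is a phosphatidate phosphatase that also acts in the nucleus as a partner of PPAR-alpha and PGC-1 alpha.

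Because the treatment blocks miR-21, the sequences that this microRNA could pair with are shown first. The mature mouse miR-21a-5p (RefSeq, GRCm38.p6, chromosome 11, 86584120 to 86584141, minus strand) has its seed, bases 2 to 8, in capitals.
miR-21a-5p: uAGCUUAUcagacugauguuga
The match to that seed, ATAAGCT on the transcript strand, was searched in the longest annotated 3′ UTR of each gene (GENCODE vM21, GRCm38), where 1511 of 21022 genes (7.2%) hold it. Of the 10 genes, 3 had 1 match each. They are shown 5′ to 3′ with the match in capitals.
Ppara: tcgagaatagtttgATAAGCTa
Ppargc1a: tagcccatcaaaatATAAGCTg
Lpin1: tctcactttaggtgATAAGCTc
The Ppara stretch lies on chromosome 15 from 85801815 to 85801836 (plus strand), with the match at base 571 of a UTR of 1561 bases. The Ppargc1a stretch lies on chromosome 5 from 51455056 to 51455077 (minus strand), with the match at base 3117 of 3930. The Lpin1 stretch lies on chromosome 12 from 16537838 to 16537859 (minus strand), with the match at base 568 of 2744. Only the Ppara match is followed by an A, the base that lies opposite base 1 of the microRNA and that is known to favour repression. These UTRs are longer than the median of 961 bases over all genes, and a match is a description of the sequence, not evidence of a site in use. Ppard, Pparg, Rxra, Rxrb, Ppargc1b, Esrra and Ncor1 held 0 matches in their longest UTR.

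No member passed the test in any of the 3 comparisons of the groups. With edgeR's quasi-likelihood test and Benjamini-Hochberg adjustment at 0.05 over all 14380 loci, 0 of 8 members passed in KO PBS against HET PBS (0.0% of all loci passed, percent over both directions). The count was also 0 of 8 in KO antimiR-21 against KO PBS (0.0% of all loci) and 0 of 8 in KO antimiR-21 against HET PBS (0.00695% of all loci, which is 1 locus, Fcrls). At an unadjusted p under 0.05, 2 of 8 members were past the limit in KO PBS against HET PBS (6.94% of all loci), 3 of 8 in KO antimiR-21 against KO PBS (8.21%) and 0 of 8 in KO antimiR-21 against HET PBS (8.05%). Those were Ppara and Lpin1 in the first comparison and Ppara, Ppard and Lpin1 in the second. The groups' ranges did not overlap for 0 of 8 members in KO PBS against HET PBS (6.76% of all loci), 1 of 8 in KO antimiR-21 against KO PBS (4.28%) and 0 of 8 in KO antimiR-21 against HET PBS (5.98%). limma-voom also passed 0 members in all 3 comparisons, while DESeq2 passed 1 member, Ppara, in KO antimiR-21 against KO PBS. DESeq2 passed 84 loci in KO PBS against HET PBS, 128 in KO antimiR-21 against KO PBS and 73 in KO antimiR-21 against HET PBS.

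The members' median log2 difference was -0.12 in KO PBS against HET PBS (-0.02 over all loci), 0.16 in KO antimiR-21 against KO PBS (0.0 over all loci) and -0.01 in KO antimiR-21 against HET PBS. The first and second comparisons share the KO PBS libraries, and their values stand side by side only as a description.

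**Figure D1:**
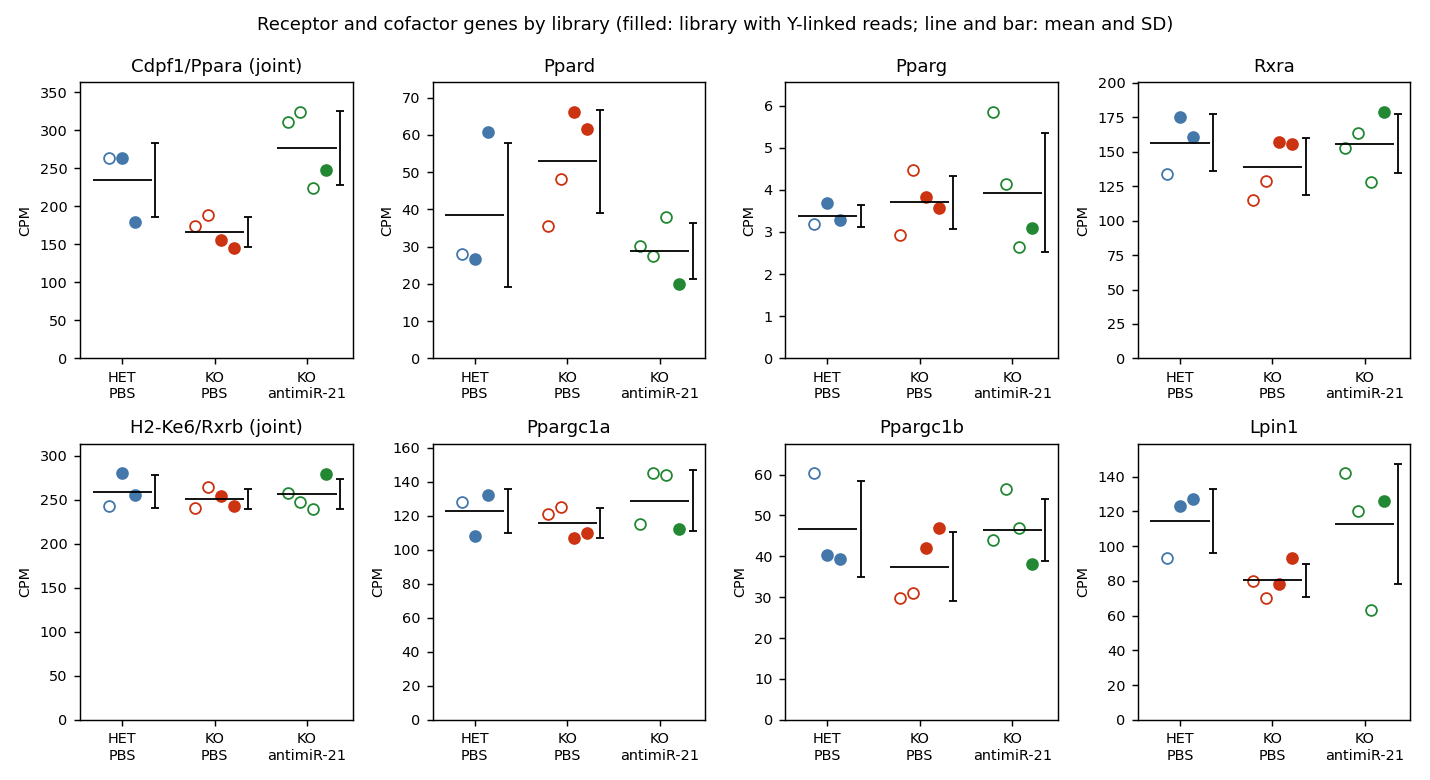
Level of each receptor and cofactor gene in CPM (vertical axes, from 0) by group, 1 point per library, with the group mean as a line and the SD as a bar; filled points are libraries with Y-linked reads. The KO antimiR-21 points of Cdpf1/Ppara, 224 to 324 CPM, all lie above the KO PBS points, 145 to 189 CPM, and in each group the filled points of Rxra lie above the open ones.

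Ppara (chromosome 15, 85734983 to 85802819, plus strand) ends 4152 bases from Cdpf1, which lies on the opposite strand. The library kit does not mark strand. Cdpf1/Ppara had 263, 263 and 179 CPM in HET PBS, then 174, 189, 156 and 145 CPM in KO PBS and 311, 324, 224 and 248 CPM in KO antimiR-21. The 4 treated libraries were all above the 4 KO PBS libraries. HET PBS replicate 3 fell inside the KO PBS range, and the other HET PBS libraries above it.

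The mean was 277 ± 48.3 CPM (SD, n = 4) in KO antimiR-21 and 166 ± 19.4 CPM (n = 4) in KO PBS, a log2 difference of 0.74 (SE 0.156). The adjusted p from edgeR was 0.312 and the locus ranked 24 of 14380 by p. Ppara was the member whose ranges did not overlap here. The difference kept its sign under every alternative run (0.64 to 0.83), and the adjusted p ran from 0.00697 with DESeq2 (log2 difference 0.73) to 1.0 without KO antimiR-21 replicate 2. By Y-linked status itself the locus differed by -0.24 (SE 0.118, edgeR adjusted p 0.17). With that status as a term the treatment difference was 0.68 (edgeR, adjusted p 0.123). Among libraries without Y-linked reads the treated ones had 311, 324 and 224 CPM and the KO PBS ones 174 and 189 CPM. Among those with such reads the treated one had 248 CPM and the KO PBS ones 156 and 145 CPM.

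KO PBS lay below HET PBS (235 ± 48.7 CPM, n = 3) by a log2 difference of -0.50 (SE 0.166, edgeR adjusted p 0.56). In whole tissue, fewer cells that express a gene and less RNA per cell cannot be told apart. All 11 tested markers of the proximal tubule had a lower mean in KO PBS than in HET PBS (median -0.33), and 0 passed the adjusted test. Their summed level ran from 18700 to 34300 CPM in KO PBS, from 24400 to 42200 in HET PBS and from 22300 to 36200 in KO antimiR-21. No proximal tubule marker was at 0 in any library. Markers of macrophages (10 of 10, median 0.64), fibroblasts (10 of 10, median 0.75) and tubular injury (12 of 12, median 1.39) were higher in KO PBS than in HET PBS, again with 0 passing. Their sums ran from 348 to 440, from 852 to 1680 and from 1870 to 7590 CPM in KO PBS, against 287 to 341, 501 to 828 and 1050 to 2410 CPM in HET PBS. The part of these cell markers in the results on KO PBS was not tested. KO antimiR-21 and HET PBS differed by 0.23 (SE 0.168, edgeR adjusted p 0.649).

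Ppard (chromosome 17, 28232700 to 28301474, plus strand) had the opposite order of group means. It stood at 28.1, 26.7 and 60.7 CPM in HET PBS, at 35.5, 48.3, 66.2 and 61.7 CPM in KO PBS and at 30.1, 27.4, 37.9 and 19.9 CPM in KO antimiR-21. Of the treated libraries, 3 lay below every KO PBS library and KO antimiR-21 replicate 3 lay inside their range. HET PBS replicate 3 stood at more than the other HET PBS libraries combined.

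The treated mean of 28.8 ± 7.42 CPM (n = 4) lay below the KO PBS mean of 52.9 ± 13.9 CPM (n = 4) by a log2 difference of -0.88 (SE 0.300, edgeR adjusted p 0.462). Over the alternatives that difference ran from -1.04 to -0.75. KO PBS lay above HET PBS (38.5 ± 19.2 CPM, n = 3) by 0.46 (SE 0.323, edgeR adjusted p 0.812). Without HET PBS replicate 3 it was 0.96 (edgeR adjusted p 0.527), and without HET PBS replicate 1 or 2 it was 0.28. The difference of KO antimiR-21 from HET PBS, -0.41, became 0.07 without HET PBS replicate 3. By Y-linked status Ppard differed by 0.27 (SE 0.299, edgeR adjusted p 0.571).

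Several genes of the circadian clock varied between libraries much as Cdpf1/Ppara or Ppard did. Bhlhe41, Per3, Tef, Arntl, Npas2 and Nfil3 belong to that clock or to its output, and they are shown because of their values: Bhlhe41 as the locus most like Cdpf1/Ppara, Per3 for its p, and the rest after their values were seen. Arntl encodes BMAL1, which pairs with CLOCK or NPAS2 and drives transcription of the Per genes in a daily cycle. Arntl stood at 7.64, 3.57 and 23.7 CPM in HET PBS, at 19.1, 24.5, 28.7 and 30.6 CPM in KO PBS and at 5.47, 4.97, 18.9 and 4.28 CPM in KO antimiR-21. HET PBS replicate 3 and KO antimiR-21 replicate 3 thus stood with or next to the KO PBS libraries. Per3 had the reverse order: 114, 129 and 44.4 CPM, then 40.3, 29.0, 40.4 and 40.3 CPM, then 144, 145, 53.2 and 105 CPM.

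A clock value per library was taken as the mean log2 CPM of 7 genes that peak with Per3 minus that of 4 genes that peak with Arntl, the genes being chosen with these data known. It was 3.36, 4.16 and 1.03 in HET PBS, 1.23, 0.906, 0.831 and 0.83 in KO PBS, and 4.18, 4.12, 1.6 and 3.76 in KO antimiR-21. Since its genes were chosen for this pattern, the value describes the libraries and tests nothing. Of the 16 tested core clock genes, 8 were higher and 3 lower at an unadjusted p under 0.05 in KO antimiR-21 against KO PBS (median 0.59, 0.0 over all loci), and 0 passed after adjustment. In KO PBS against HET PBS 0 were higher and 7 lower (median -0.42). The strongest by p was Nr1d2, a repressor within the clock, at 174 ± 29.3, 120 ± 2.76 and 189 ± 24.5 CPM in HET PBS, KO PBS and KO antimiR-21. The labels give no hour of collection, and the part of the clock in the Ppara and Ppard differences was not tested.

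**Figure D2:**
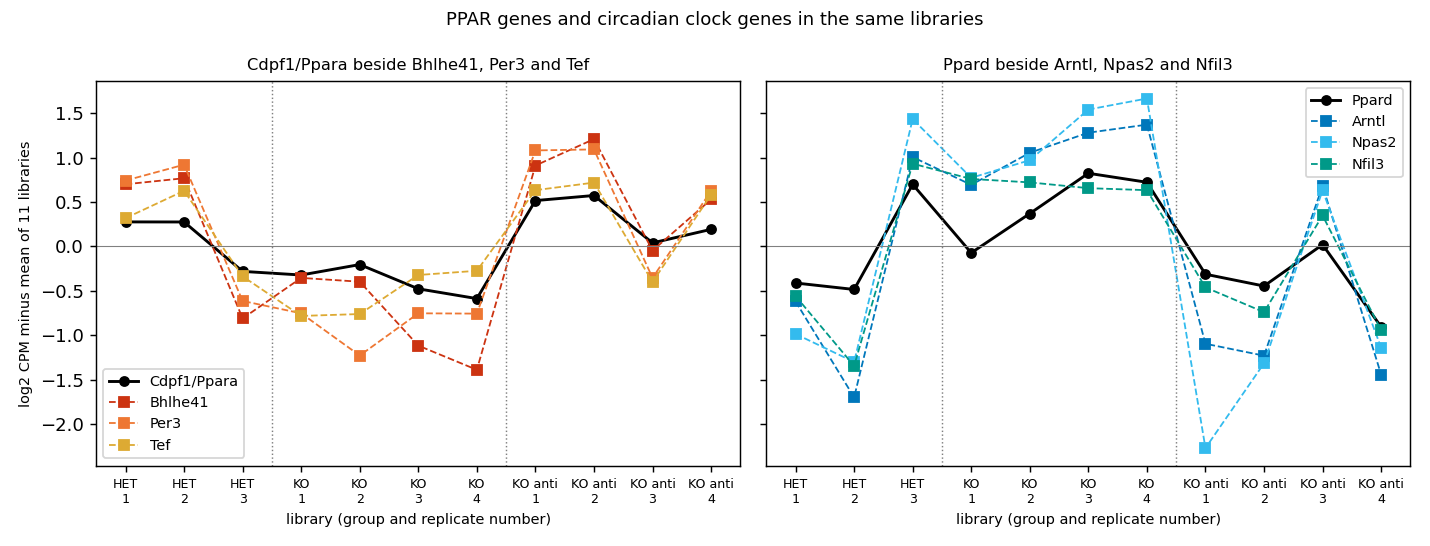
Log2 CPM of each gene minus its mean over the 11 libraries (vertical axis), by library (horizontal axis, group and replicate number; dotted lines divide the groups). Cdpf1/Ppara runs with Bhlhe41, Per3 and Tef, and Ppard with Arntl, Npas2 and Nfil3. HET replicate 3 lies apart from its group for Cdpf1/Ppara, Ppard, Per3, Tef, Arntl and Npas2. KO antimiR-21 replicate 3 does so for Per3, Tef, Arntl and Npas2. For Cdpf1/Ppara (224 CPM) it lies near replicate 4 (248 CPM), and for Ppard (37.9 CPM) near replicate 1 (30.1 CPM).

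Of 10017 loci with a mean of at least 5 CPM, the one whose log2 CPM ran most like that of Cdpf1/Ppara over the 11 libraries was Bhlhe41, a clock repressor (Pearson r = 0.981). It was followed by the unnamed locus XLOC_013345 (r = 0.963) and by Nampt, the enzyme that makes an NAD precursor (r = 0.960). Bhlhe41 had group means of 7.60, 3.44 and 9.68 CPM in HET PBS, KO PBS and KO antimiR-21, and Nampt 192, 145 and 225 CPM. For Ppard they were Gtf2ird1 (r = 0.945), Ldoc1l (r = 0.944) and Rdh10, a retinol dehydrogenase that makes the precursor of retinoic acid (r = 0.932). Rdh10 had group means of 75.4, 91.4 and 63.7 CPM. These values describe likeness over libraries that share groups, depth and Y-linked status.

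Pparg (chromosome 6, 115360951 to 115490399, plus strand) was the least abundant member. It stood at 3.18, 3.68 and 3.29 CPM in HET PBS, at 2.94, 4.46, 3.83 and 3.57 CPM in KO PBS and at 5.85, 4.14, 2.65 and 3.10 CPM in KO antimiR-21. The highest and the lowest library were both treated ones. The log2 difference of KO antimiR-21 from KO PBS was 0.09 (SE 0.241, edgeR adjusted p 0.958), and it was -0.17 without KO antimiR-21 replicate 1. KO PBS differed from HET PBS by 0.13 (SE 0.259, edgeR adjusted p 0.934), and libraries with Y-linked reads from those without by -0.09 (SE 0.221, adjusted p 0.813).

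KO antimiR-21 replicate 1 also had the highest level of fat cell markers. Adipoq, the adipocyte hormone, stood there at 4.37 CPM and between 0 and 1.05 CPM in the other libraries. Ucp1, the uncoupling protein of brown fat, stood at 17.1 CPM there, at 4.50 CPM in KO PBS replicate 4 and at 2.15 CPM in KO antimiR-21 replicate 2, and at most at 0.631 CPM elsewhere. All 8 tested adipocyte markers had a higher mean in KO antimiR-21 than in KO PBS (median 1.14), and 0 passed the adjusted test. The count files hold 11 markers of that list. Scarce ones such as Adipoq can pass the filter on low counts through the libraries where they are high. The shared direction of the 8 can thus come in part from that filter and is only a description. The summed level of the 11 markers in the count files ran from 138 to 185 CPM in HET PBS, from 114 to 174 in KO PBS and from 112 to 232 in KO antimiR-21. HET PBS replicate 2 had 185 CPM with Adipoq at 0.165 CPM, so a high sum need not go with high Adipoq. Adipoq was at 0 in HET PBS replicate 3, KO PBS replicate 2 and KO antimiR-21 replicate 4. Among the treated libraries, replicate 2 came next in both Adipoq (1.05 CPM) and Pparg (4.14 CPM). In KO PBS, replicate 4 had the most Adipoq (0.932 CPM) with Pparg at 3.57 CPM. The highest Pparg level of that group, 4.46 CPM, was in replicate 2. The part of fat cells in the Pparg values was not tested. The loci most like Pparg over the libraries were Trub1 (r = 0.905) and Nop14 (r = 0.854).

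Rxra (chromosome 2, 27676440 to 27762957, plus strand) encodes RXR-alpha, which pairs with each PPAR. It stood at 134, 175 and 161 CPM in HET PBS, at 115, 129, 157 and 156 CPM in KO PBS and at 153, 164, 128 and 179 CPM in KO antimiR-21. The groups overlapped throughout. The log2 difference was -0.17 (SE 0.143, edgeR adjusted p 0.837) for KO PBS against HET PBS, 0.16 (SE 0.133, adjusted p 0.801) for KO antimiR-21 against KO PBS and -0.01 for KO antimiR-21 against HET PBS.

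Within each group, however, the libraries with Y-linked reads had the higher Rxra levels. They had 175 and 161 against 134 CPM in HET PBS, 157 and 156 against 115 and 129 CPM in KO PBS, and 179 against 153, 164 and 128 CPM in KO antimiR-21. With the groups as terms, the 5 libraries with Y-linked reads (165 ± 10.6 CPM) lay above the 6 without (137 ± 18.2 CPM) by a log2 difference of 0.32 (SE 0.0724, edgeR adjusted p 0.00901). Rxra was the 1 member of 8 that passed in this comparison, where 17.9% of all loci passed (11.1% higher and 6.85% lower with Y-linked reads). The share of members is thus near that of all loci. At an unadjusted p under 0.05 it was 2 of 8 (33.4% of all loci), Rxra and Ppargc1a, and for 0 of 8 members the ranges did not overlap (12.3%). Cell markers moved with Y-linked status too: 6 of 7 tested podocyte markers passed, all lower, and 4 of 11 proximal tubule markers, 3 of them higher, and their part in the Rxra result was not tested. The difference stayed between 0.29 and 0.44 in 18 alternatives and passed in 16 of them. It missed the threshold without HET PBS replicate 1 (0.32, edgeR adjusted p 0.0533) and with the replicate number as a block. The loci most like Rxra over the libraries were Map2k6 (r = 0.965), a kinase of the p38 pathway, Ppp1r16a/Recql4 (r = 0.961) and Pm20d1 (r = 0.960), an enzyme that makes N-acyl amino acids.

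Rxrb (chromosome 17, 34031812 to 34038399, plus strand) lies 3751 bases from H2-Ke6, a hydroxysteroid dehydrogenase gene on the opposite strand also known as Hsd17b8. The joint locus was the steadiest member: 243, 280 and 255 CPM in HET PBS, 241, 265, 254 and 243 CPM in KO PBS, and 258, 247, 240 and 279 CPM in KO antimiR-21. Its highest library was 1.17 times its lowest, against 3.32 times for Ppard. The group means were 259 ± 18.9, 251 ± 11 and 256 ± 17.3 CPM, and no difference between groups exceeded 0.05 in size on the log2 scale (lowest edgeR adjusted p 0.923). By Y-linked status it differed by 0.08 (SE 0.0633, edgeR adjusted p 0.395). Opposite changes of the joint genes would not be seen in this sum. The locus most like it was Best1/Fth1 (r = 0.964), where Fth1 encodes the ferritin heavy chain.

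Ppargc1a (chromosome 5, 51454250 to 51567726, minus strand) stood at 128, 108 and 132 CPM in HET PBS, at 121, 125, 107 and 110 CPM in KO PBS and at 115, 145, 144 and 112 CPM in KO antimiR-21. KO antimiR-21 replicates 2 and 3 were above all other libraries and replicates 1 and 4 inside the KO PBS range. The log2 difference was -0.08 (SE 0.115, edgeR adjusted p 0.903) for KO PBS against HET PBS and 0.16 (SE 0.107, adjusted p 0.771) for KO antimiR-21 against KO PBS. Libraries with Y-linked reads had 114 ± 10.1 CPM and those without 130 ± 12.4 CPM, a difference of -0.18 with the groups as terms (SE 0.0796, edgeR adjusted p 0.127). The locus most like it was Adra1a, an adrenergic receptor (r = 0.896).

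Ppargc1b (chromosome 18, 61298136 to 61400431, minus strand) stood at 60.3, 40.4 and 39.4 CPM in HET PBS, at 29.7, 31.1, 42.1 and 47.0 CPM in KO PBS and at 44.1, 56.4, 46.8 and 38.1 CPM in KO antimiR-21. The KO PBS group held the lowest pair of libraries of the series. KO PBS differed from HET PBS by -0.32 (SE 0.201, edgeR adjusted p 0.792), and by -0.09 without HET PBS replicate 1. KO antimiR-21 differed from KO PBS by 0.31 (SE 0.187, edgeR adjusted p 0.738), and by 0.18 without KO antimiR-21 replicate 2. By Y-linked status the difference was -0.06 (SE 0.177, edgeR adjusted p 0.848). The locus most like it was Zfp167 (r = 0.901).

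Lpin1 (chromosome 12, 16535669 to 16610966, minus strand) stood at 93.1, 123 and 127 CPM in HET PBS, at 79.9, 69.9, 78.4 and 93.2 CPM in KO PBS and at 142, 120, 63.1 and 126 CPM in KO antimiR-21. Of the treated libraries, 3 were above every KO PBS library, and KO antimiR-21 replicate 3 was the lowest of the series. KO PBS differed from HET PBS by -0.51 (SE 0.226, edgeR adjusted p 0.715) and KO antimiR-21 from KO PBS by 0.49 (SE 0.211, edgeR adjusted p 0.588). Without KO antimiR-21 replicate 3 the latter was 0.68 (edgeR adjusted p 0.0718). That library also had the lowest clock value of its group, 1.6. In HET PBS the library with the lowest clock value, replicate 3 (1.03), had the highest Lpin1 level, 127 CPM. In KO PBS replicates 3 and 4 had nearly the same lowest clock value (0.831 and 0.83), with Lpin1 at 78.4 and 93.2 CPM. The part of the clock in the Lpin1 values was not tested. By Y-linked status Lpin1 differed by 0.26 (SE 0.186, edgeR adjusted p 0.352). The loci most like Lpin1 were Actr6 (r = 0.922), Prkag3, a subunit of the energy sensor AMPK (r = 0.919), and Nrd1/Osbpl9 (r = 0.913). Prkag3 had group means of 11.8, 6.90 and 13.6 CPM.

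**Figure D3:**
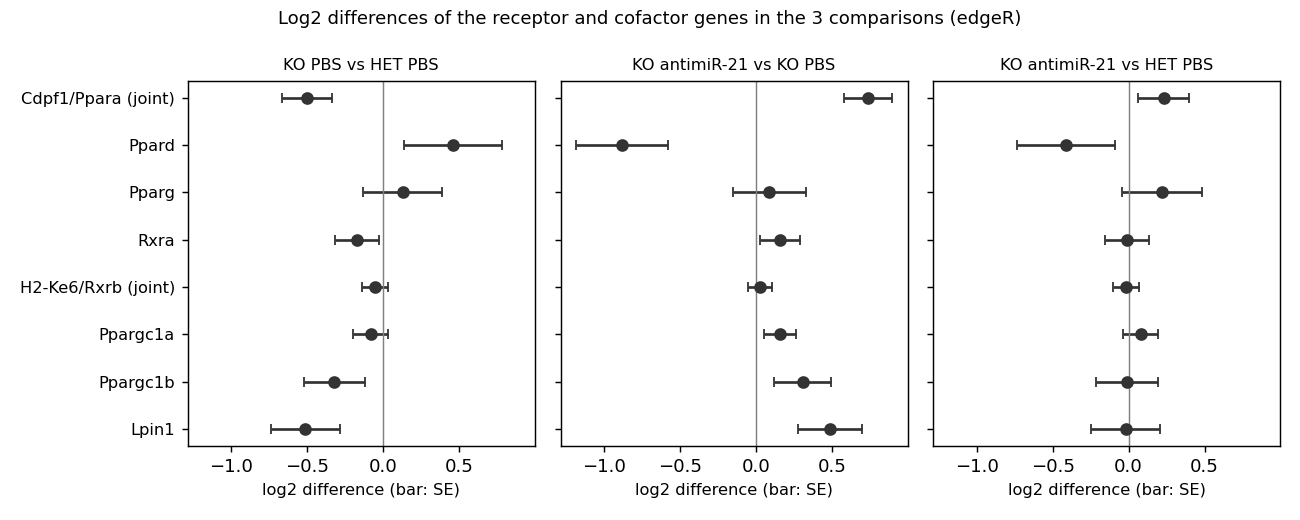
Log2 difference between groups (horizontal axis) of each receptor and cofactor gene in the 3 comparisons, with the standard error as a bar. Cdpf1/Ppara (-0.50, then 0.74) and Lpin1 (-0.51, then 0.49) lie on opposite sides of 0 in the first and second panels, which share the KO PBS libraries, as does Ppard (0.46, then -0.88).

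Levels between genes are compared per kilobase of annotated exon (CPM per kb, mean ± SD over the 11 libraries). H2-Ke6/Rxrb at 45.4 ± 2.59 and Cdpf1/Ppara at 44.6 ± 12.2 were highest and did not differ beyond their spread. Both values are sums over a gene pair and its joint exon length. Rxra followed at 27.5 ± 3.78 and Ppargc1a at 18.6 ± 2.08. Ppargc1b at 10.8 ± 2.34 and Lpin1 at 10.5 ± 2.79 did not differ beyond their spread. Ppard had 5.35 ± 2.17 and Pparg 1.25 ± 0.301 CPM per kb. Of the 8 members, Pparg was thus the scarcest. Rxrg, the third RXR gene, had 0.478 ± 0.461, 0.507 ± 0.188 and 0.425 ± 0.0813 CPM in HET PBS, KO PBS and KO antimiR-21, below Pparg but not scaled by length.

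The 3 genes with a seed match for miR-21 had log2 differences of 0.74 (Ppara, with its neighbour's reads), 0.49 (Lpin1) and 0.16 (Ppargc1a) in KO antimiR-21 against KO PBS. The 5 tested members with 0 matches had -0.88 (Ppard), 0.09 (Pparg), 0.16 (Rxra), 0.03 (Rxrb) and 0.31 (Ppargc1b). Of the 14380 tested loci, 9782 were compared, leaving out 1502 joint loci and 3096 without an annotated UTR under their name. The 814 loci with a match had a median of -0.01 and 46.2% of them were higher in treated kidneys. The 253 loci whose match is followed by an A had a median of -0.02 (45.5% higher), and the 8968 loci without a match had a median of 0.0 (49.7% higher). Loci with a match were not higher as a class in the treated kidneys. Cdpf1/Ppara, as a joint locus, is not in that class, and the class values do not decide the case of any single member.

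The partners of RXR other than PPARs went both ways. Of 13 tested partner receptors, 6 were higher and 7 lower in KO PBS than in HET PBS (median -0.01) and 8 were higher and 5 lower in KO antimiR-21 than in KO PBS (median 0.02), with 0 passing after adjustment. The log2 differences of KO PBS from HET PBS ran from -0.62 (Nr1h4) to 0.79 (Nr4a1, an early response receptor). Vdr, the vitamin D receptor, had the smallest p over the 3 comparisons of groups: 367 ± 17.8 CPM in HET PBS, 298 ± 26.7 in KO PBS and 300 ± 16.4 in KO antimiR-21 (log2 difference of KO PBS from HET PBS -0.30, SE 0.0914, edgeR adjusted p 0.51). By Y-linked status 2 of the 13 passed, a share near that of all loci (17.9%). Nr1h4, the bile acid receptor FXR, was higher with Y-linked reads by 0.85 (SE 0.115, edgeR adjusted p 0.000373). Nr1i2, the xenobiotic receptor PXR, was lower (log2 difference -0.52, SE 0.136, edgeR adjusted p 0.0192).

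Coactivators and corepressors differed little between groups. The coactivator list includes the kinase subunits Prkaa1 and Prkaa2. Of its 14 tested genes, 5 were higher in KO PBS than in HET PBS (median -0.03). In KO antimiR-21 against KO PBS 6 were higher (median -0.05). The 5 became 8 without HET PBS replicate 3 and 9 without KO PBS replicate 2, and the 6 became 2 without KO PBS replicate 2 and 3 without KO antimiR-21 replicate 2. Pprc1, the third PGC-1 family member, had 19.9 ± 2.71, 24.8 ± 3.80 and 19.9 ± 2.95 CPM in HET PBS, KO PBS and KO antimiR-21 (log2 difference 0.32, then -0.32, edgeR adjusted p 0.741 and 0.603). Of 8 tested corepressors, 3 and 6 were higher in the same comparisons (medians -0.06 and 0.08), and the 3 became 5 without KO PBS replicate 2. Tbl1x, a subunit of the NCoR complex, differed by -0.18 in KO antimiR-21 against KO PBS (SE 0.0738, edgeR adjusted p 0.552). In none of these lists did a gene pass after adjustment in the 3 comparisons of groups.

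By Y-linked status 4 of the 14 genes on the coactivator list passed, all higher with Y-linked reads, against 11.1% of all loci. Ncoa2 (0.31, edgeR adjusted p 0.00545), Ncoa3 (0.24, 0.0314) and Kat2b (0.24, 0.0248) are acetyltransferase-recruiting or acetyltransferase coactivators. Prkaa2 (0.45, edgeR adjusted p 0.000626) is not itself a coactivator but a catalytic subunit of AMPK, which phosphorylates PGC-1 alpha. Prkaa2 ranged from 245 to 304 CPM with Y-linked reads and from 184 to 219 CPM without.

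The estrogen-related receptors other than Esrra are measured. Esrrb had 36.2 ± 7.20, 31.5 ± 5.30 and 42.8 ± 5.80 CPM, with every treated library (37.5 to 51.1 CPM) above every KO PBS library (24.5 to 37.3 CPM), and a log2 difference of 0.44 (SE 0.154, edgeR adjusted p 0.47). Esrrg had 108 ± 12.3, 95.6 ± 8.05 and 92.0 ± 7.82 CPM, and the corresponding difference was -0.06. Of the other lipins, Lpin2 had 124 ± 12.5, 119 ± 6.38 and 138 ± 4.96 CPM (0.21 in KO antimiR-21 against KO PBS, SE 0.0749, edgeR adjusted p 0.492). Lpin3 had 26.4 ± 1.24, 24.1 ± 0.318 and 24.4 ± 1.68 CPM.

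**Figure D4:**
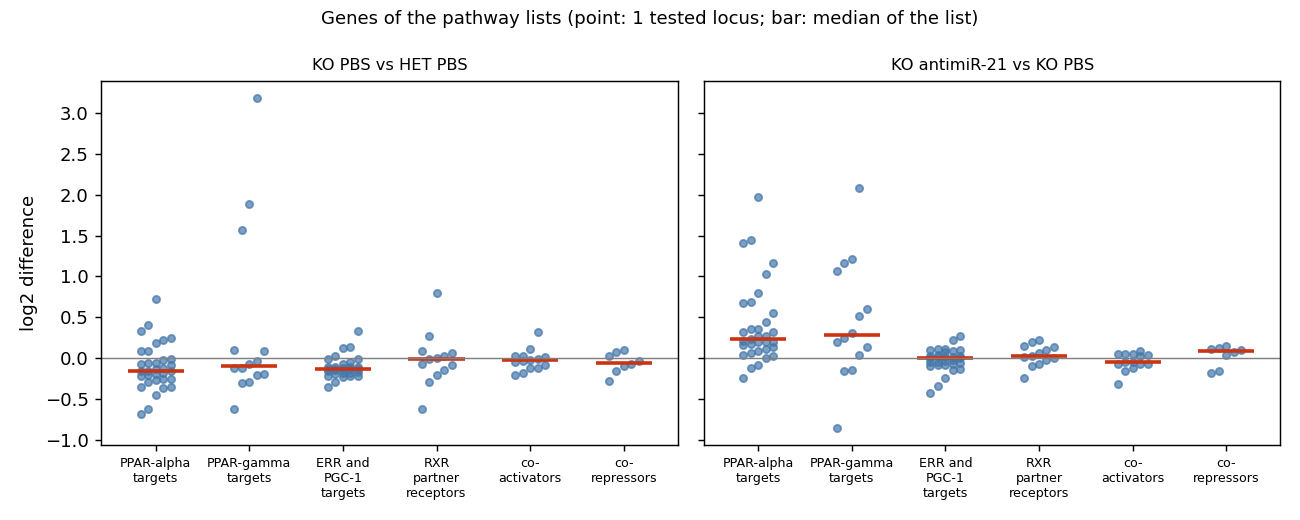
Log2 difference (vertical axis) of every tested locus of 6 pathway lists in KO PBS against HET PBS and in KO antimiR-21 against KO PBS; bars are list medians. The median of the PPAR-alpha targets is -0.16 in the left panel and 0.23 in the right one, while the medians of the RXR partners, coactivators and corepressors lie within 0.08 of 0.

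Known target genes of PPAR-alpha mostly had a higher mean in treated kidneys, with none past the adjusted test. Of the 33 tested (47 named), 30 had a higher mean in KO antimiR-21 than in KO PBS (median 0.23, 0.0 over all loci), 9 at an unadjusted p under 0.05 (8.21% of all loci), and 0 passed after adjustment. Other lists moved in the same comparison: of 13 tested genes of the glucocorticoid and fasting response, 11 were higher (median 0.46, 4 higher and 1 lower at an unadjusted p under 0.05), and of 11 proximal tubule markers 6 were higher (median 0.20, 3 higher and 0 lower). Angptl4 is on both the fasting and the PPAR-alpha list, and the part of those lists in the result was not tested. Vnn1, a pantetheinase, had 104 ± 20.0 CPM in KO PBS and 153 ± 15.8 CPM in KO antimiR-21 (log2 difference 0.55, SE 0.134, edgeR adjusted p 0.326). Acaa1b/Dlec1, where Acaa1b is a peroxisomal thiolase, had 568 ± 106 and 991 ± 245 CPM (0.80, SE 0.214, adjusted p 0.334). Slc22a5, the carnitine importer, had 250 ± 27.9 and 340 ± 49.4 CPM (0.44, SE 0.119, adjusted p 0.334). Cpt1a, which commits fatty acids to mitochondrial oxidation, had 520 ± 27.0 and 664 ± 97.4 CPM (0.35, SE 0.111, adjusted p 0.405).

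In KO PBS against HET PBS 8 of these 33 were higher and 25 lower (median -0.16). At an unadjusted p under 0.05 they were 0 and 3, a share near that of all loci (6.94% in either direction). The count of higher genes was 14 without HET PBS replicate 1, 3 without HET PBS replicate 2 and 4 without KO PBS replicate 2. HET PBS had 342 ± 31.9 CPM of Slc22a5 and 666 ± 46.6 CPM of Cpt1a, and the differences were -0.45 (edgeR adjusted p 0.489) and -0.36 (edgeR adjusted p 0.569). The proximal tubule markers that moved with this comparison are given with Ppara above. In KO antimiR-21 against HET PBS 23 of 33 were higher (median 0.15).

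The same targets were split by Y-linked status, where 13 of 33 passed, 4 higher and 9 lower with Y-linked reads (17.9% of all loci passed). The genes named here were chosen after their values were seen. Fabp1, a fatty acid binding protein, ranged from 0.264 to 0.711 CPM with and from 1.76 to 3.41 CPM without Y-linked reads (log2 difference -2.51, SE 0.324, edgeR adjusted p 0.000233). Acsl1, which activates long fatty acids, ranged from 233 to 399 and from 562 to 706 CPM (-1.01, adjusted p 0.000512 with edgeR). Cyp4a10, a fatty acid hydroxylase, ranged from 191 to 328 and from 405 to 777 CPM (-0.98, adjusted p 0.00146 with edgeR). Acadm, a mitochondrial acyl-CoA dehydrogenase, went the other way, from 1550 to 2340 with and from 769 to 1410 CPM without (0.90, adjusted p 0.0019 with edgeR). Only 1 of the 4 treated libraries had Y-linked reads, against 2 of 4 KO PBS libraries. With that status as a term, the count of targets higher in KO antimiR-21 than in KO PBS stayed within 1.5 times of that without it. Beyond this count, the part of the imbalance in the treatment differences of these targets was not tested.

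Of 14 tested PPAR-gamma targets, 11 were higher in KO antimiR-21 than in KO PBS (median 0.28). Of these, 3 were at an unadjusted p under 0.05 (8.21% of all loci in either direction) and 0 passed after adjustment. The count was 6 of 11 still tested without KO antimiR-21 replicate 1 and 7 of 11 without KO antimiR-21 replicate 2. Fewer loci passed the filter on low counts there, so these counts are not out of 14. Those libraries had the most Adipoq among the treated ones. The scarcest genes of the list were Plin1, Cidec and Adipoq. They had 0.67, 0.579 and 0.301 CPM in KO PBS and 1.48, 1.41 and 1.37 CPM in KO antimiR-21. Such genes can pass that filter through the few libraries where they are high, so the 11 of 14 and its median are only a description. Pnpla2, a triglyceride lipase, had 109 ± 10.3 and 155 ± 33.2 CPM in KO PBS and KO antimiR-21 (0.52, SE 0.158, edgeR adjusted p 0.386). Angptl4, a lipase inhibitor that is on both target lists, had 55.7 ± 17.7 and 125 ± 56.6 CPM (1.16, SE 0.444, edgeR adjusted p 0.531). In KO PBS against HET PBS 5 of 14 were higher (median -0.09). The count was 8 of 14 without HET PBS replicate 1 and 3 of 14 without HET PBS replicate 3. It was 2 of the 11 still tested without KO PBS replicate 4, KO antimiR-21 replicate 1 or KO antimiR-21 replicate 2. Cd36, a fatty acid receptor picked after its values were seen, ranged from 631 to 1290 CPM in libraries with and from 61.7 to 94.5 CPM in libraries without Y-linked reads (3.64, SE 0.183, edgeR adjusted p 6.38e-07).

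Targets of the estrogen-related receptors and PGC-1, mostly mitochondrial genes, were about evenly split between higher and lower after treatment. Of 30 tested, 16 were higher and 14 lower in KO antimiR-21 than in KO PBS (median 0.0), with 0 at an unadjusted p under 0.05. The count of higher genes was 9 without KO PBS replicate 1 and 7 without KO antimiR-21 replicate 4. In KO PBS against HET PBS 4 were higher and 26 lower (median -0.13; 2 higher without KO PBS replicate 2), and in KO antimiR-21 against HET PBS the counts were also 4 and 26 (median -0.12). Ogdh, a subunit of the 2-oxoglutarate dehydrogenase of the citric acid cycle, had the smallest p over the 3 comparisons of groups. It had 940 ± 126, 764 ± 73.1 and 776 ± 48.3 CPM in HET PBS, KO PBS and KO antimiR-21 (-0.30 for KO PBS against HET PBS, SE 0.114, edgeR adjusted p 0.647). Mfn2, a mitochondrial fusion protein, had 185 ± 13.3, 161 ± 8.30 and 173 ± 7.36 CPM. By Y-linked status 26 of 30 were higher with such reads (median 0.13, -0.02 over all loci). Of the 30, 3 passed, all higher, a share near that of all loci (11.1% higher, 17.9% in either direction). HET PBS, KO PBS and KO antimiR-21 held 2 of 3, 2 of 4 and 1 of 4 libraries with Y-linked reads.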

How the data were processed

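Each library has a deposited file of estimated counts by gene symbol, without normalization, per the file headers. The values go in steps of 0.5, and 47.4% of those above 0 are not whole. A log2 matrix that the authors deposited served as an alternative only, and it has 0 columns from samples outside the series. Tools named in the submitters' processing notes, without roles, are FastQC, STAR, SAMtools, HTSeq 0.5.4p5 and limma, with the build mm10. For the annotation and counting settings, the sources used here give nothing. The kit took 150 ng of total RNA and does not mark strand, per the labels' protocols.

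Rows with the same count in all 11 libraries and a total of at least 50 were joined (1513 joint loci, 23401 loci in all), because their reads cannot be divided. Totals were 22.4 to 49.7 M as deposited and 17.9 to 39.7 M after joining. After rounding, edgeR 4.0.16 (R 4.3.3) was run with filterByExpr (14380 loci), TMM and a robust quasi-likelihood fit of the 3 groups. Tests were two-sided, p-values were adjusted by Benjamini-Hochberg, and the threshold was 0.05. The fit's biological coefficient of variation came to 0.215. Y-linked status (Ddx3y above 5 CPM) was tested as a term beside the groups, a comparison added after the data were seen. The scripts were tested on simulated data. Alternatives used DESeq2 1.42.0, limma 3.58.1 (limma-voom and the log2 matrix), other scaling and filters, and each library left out in turn.

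The members and gene lists were chosen with earlier results of these data known, and counts over lists are descriptions. The text names all members, up to 4 genes of each list with the smallest p over the 3 comparisons, members of the coregulator, RXR partner, lipin and ERR lists where a sentence needs them, and up to 3 loci most like each member. Positions are those of GENCODE vM21 (GRCm38, the same assembly as mm10).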

Additional observations from a re-analysis of the deposited data

How the results depend on the processing

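Limits: groups hold 3 or 4 libraries, Y-linked status and the clock value differ between libraries of a group, and Ppara and Rxrb share reads with a neighbour. No member passed in KO PBS against HET PBS or in KO antimiR-21 against HET PBS under any alternative run. Ppara passed in KO antimiR-21 against KO PBS with DESeq2 (1 member, log2 difference 0.73, adjusted p 0.00697) and with the replicate number as a block (1 member, 0.73, edgeR adjusted p 0.0452). Deviations of same-numbered libraries correlated above 0.1 in 6 of 10 pairs and not in 4 (range -0.444 to 0.629). The 6 pairs were alike in Y-linked status and the 4 were not, so this check cannot separate pairing by number from that status. The numbers were not taken to pair the samples. The cause of the changes between alternatives was not tested.

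Loci passing numbered 0 in KO PBS against HET PBS and 3 with Y-linked status as a term, 2 with the replicate block, 1 on the authors' log2 matrix, 84 with DESeq2 and 0 to 2 with 1 library left out. In KO antimiR-21 against KO PBS they numbered 0, then 26 with the block, 128 with DESeq2 and 0 to 16 with 1 library left out (16 without KO antimiR-21 replicate 3). In KO antimiR-21 against HET PBS they numbered 1, then 0 with limma-voom, 2 with Y-linked status, 4 with the block, 2 on the authors' log2 matrix, 73 with DESeq2 and 0 to 4 with 1 library left out. By Y-linked status 2576 loci and 1 member passed, 553 loci and 0 members with the replicate block, and 1218 to 3736 loci and 0 to 1 member with 1 library left out. Rxra then had 0.44 with the block (edgeR adjusted p 0.0868).

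Small differences changed sign. In KO antimiR-21 against HET PBS, Ppargc1b was 0.01 with limma-voom and 0.01 on the authors' log2 matrix, and Rxra 0.0 with rows as deposited. With Y-linked status as a term Rxra was 0.13, Rxrb 0.02, Ppargc1a -0.0 and Lpin1 0.10. With 1 library left out the ranges there were -0.62 to 0.07 for Ppard, -0.04 to 0.37 for Pparg, -0.11 to 0.08 for Rxra, -0.06 to 0.04 for Rxrb, -0.01 to 0.14 for Ppargc1a, -0.12 to 0.22 for Ppargc1b and -0.15 to 0.18 for Lpin1. Rxrb ranged from -0.09 to 0.03 in KO PBS against HET PBS and from -0.03 to 0.06 in KO antimiR-21 against KO PBS, where Pparg ranged from -0.17 to 0.24. By Y-linked status the replicate block gave 0.11 for Ppara, -0.15 for Ppard and 0.48 for Pparg, and 1 library left out gave -0.20 to 0.05 for Pparg and -0.18 to 0.18 for Ppargc1b. Over all alternatives, for log2 differences of members and counts of list genes, 1099 values kept their side of the threshold or stayed within 1.5 times, 32 moved further, 35 changed sign, 2 newly passed and 2 no longer passed.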
